A study of Homo sapiens with 12 samples.

Results

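Among the H3K4me3 peaks of HepG2 cells, a small set carried histone acetylation but shared no base with an H3K4me1 peak. HepG2 is a human liver cancer cell line, grown here without treatment. The set, called the H3K4me1-free peaks below, holds the H3K4me3 peaks on chromosomes 1 to 22 and X that were narrower than 4000 bp, overlapped an H3K27ac peak by at least 1 bp and overlapped no H3K4me1 peak. They were chosen by measured values, namely the H3K4me3 peak widths and the overlaps with the H3K27ac and H3K4me1 lists, so those are description only. There were 820 such peaks among 24446 H3K4me3 peaks on these chromosomes. They made up 3.6% of the 22801 peaks under 4000 bp and 4.74% of the 17311 acetylated ones. The other 16491 acetylated peaks under 4000 bp shared bases with H3K4me1 and served for comparison (the H3K4me1-overlapping peaks). A further 4566 peaks of that width had H3K4me1 without H3K27ac, and 924 had neither.

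The peaks came from chromatin immunoprecipitation and sequencing (ChIP-seq), with 3 libraries for each of H3K4me3, H3K27ac and H3K4me1 and 3 control libraries that were titled input but labelled with an anti-mouse immunoglobulin. One deposited list per mark pools its libraries, so neither the depth nor the spread between cultures is known, and no difference below was tested against that spread. Medians and shares are set side by side as descriptions. The direction on each of the 23 chromosomes shows how even a difference was within these lists. The signal value of a peak is the authors' own, from their peak caller. All 820 peaks had an H3K4me3 q-value under 0.05 and overlapped an H3K27ac peak with such a q-value. Positions are hg19, counted from 1, and are given without genes, because a gene annotation and a genome of that build were not used here. For that reason the word promoter, which the mark combination invites, was not checked against gene starts.

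As background, H3K4me3 is laid down around the starts of active genes, most strongly at those rich in CpG dinucleotides, by methyltransferases of the SET1 and MLL families. H3K27ac, placed by the acetyltransferases CBP and p300, marks active promoters and enhancers. H3K4me1 is best known from enhancers and from the shoulders of active promoters, where the same lysine carries a single methyl group outside the trimethylated centre. A textbook active promoter therefore shows H3K4me3 and H3K27ac at its centre with H3K4me1 on its flanks.

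The absence of overlap was not the same as an absence of H3K4me1 flanks. The median gap from an H3K4me1-free peak to the nearest H3K4me1 peak was 1260 bp (interquartile range 207 to 13546 bp). H3K4me1 lay within 1000 bp of at least 1 edge in 395 of the 820 peaks (48.2%, 95% Wilson interval 44.8 to 51.6). In 109 peaks (13.3%, 11.1 to 15.8) it lay within that distance on both sides, in 286 (34.9%, 31.7 to 38.2) on 1 side and in 425 (51.8%, 48.4 to 55.2) on neither side. Over all 17311 acetylated peaks under 4000 bp, these shares were 80.1%, 16.5% and 3.44%. The rule itself concerns H3K4me1, so nothing is read from that contrast. The intervals cover counting error only. Peaks with no H3K4me1 on either side are thus a subset: 369 of 820 (45.0%) had none within 2000 bp, 283 (34.5%) none within 5000 bp and 228 (27.8%) none within 10000 bp. In 51 peaks (6.22%) the nearest H3K4me1 peak was 100000 bp away or more.

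**Figure D1:**
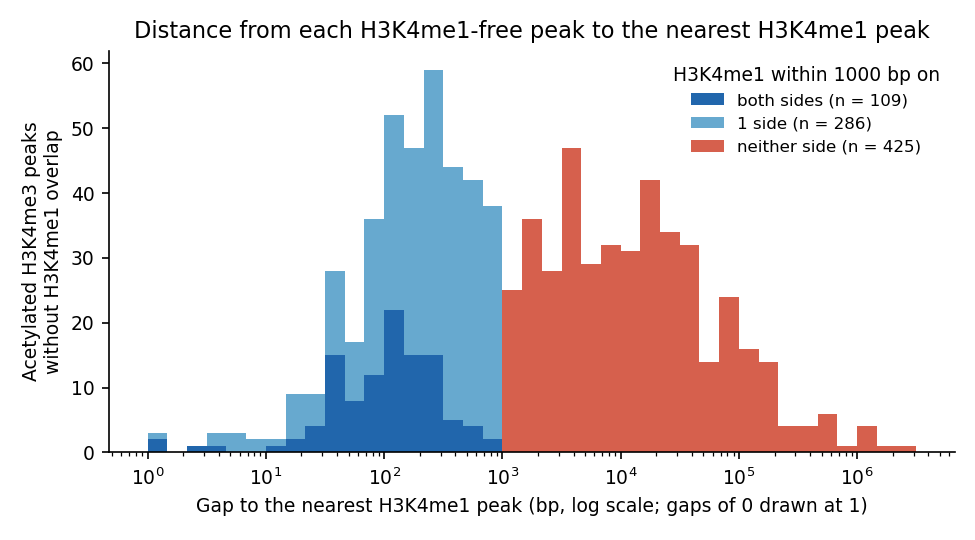
Number of H3K4me1-free acetylated H3K4me3 peaks (y axis) by the gap in bp to the nearest H3K4me1 peak (x axis, log scale), stacked by the number of sides with H3K4me1 within 1000 bp. The 395 peaks with H3K4me1 beside them lie left of 1000 bp, and the 425 without lie right of it and reach past 1000000 bp.

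In the 109 peaks with H3K4me1 on both sides, the nearest H3K4me1 peaks on the left and right were a median of 2025 bp apart (interquartile range 1114 to 3174 bp). The smaller of the 2 gaps had a median of 121 bp and the larger one of 340 bp. These are H3K4me3 peaks framed closely by H3K4me1. The strongest H3K4me1 peaks beside all H3K4me1-free peaks had a median signal value of 3.23 (quartiles 2.71 and 3.92, n = 503) and a median width of 565 bp. The whole H3K4me1 list had a median of 3.42 and a width of 696 bp, and the H3K4me1 peaks within the same distance of H3K4me1-overlapping peaks had 4.42 and 1237 bp. The rule leaves out every H3K4me1 peak that reaches into the H3K4me3 peak, so these values are description only.

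The marks that the H3K4me1 distance did not choose also differed among these subsets. H3K27ac signal value had a median of 14.6 (interquartile range 6.84 to 24.2) with H3K4me1 on both sides, 12.2 (5.58 to 23.2) with H3K4me1 on 1 side and 7.34 (3.72 to 13.6) with H3K4me1 on neither side. H3K27ac covered a median of 85.7%, 79.8% and 67.4% of the H3K4me3 peak in the same order. The H3K4me1-overlapping peaks, divided in the same way, had the same order. Their H3K27ac medians were 15.6 (n = 13749), 14.0 (n = 2572) and 6.99 (n = 170), and their coverage was 94.7%, 82.3% and 71.7%, so the order was not particular to the H3K4me1-free peaks. The ranges overlapped widely, and the strongest H3K27ac signal value of all 820, 74.6, belonged to a peak with H3K4me1 on neither side. H3K4me3 signal value did not follow that order: its median was 23.3 with both sides, 29.4 with 1 side and 17.7 with neither. The peaks framed on both sides were the most mixed, with an interquartile range of 2.76 to 42.8, against 12.4 to 46.5 and 8.81 to 30.9. Widths were mixed in the same way, with quartiles of 524 and 2552 bp around a median of 1366 bp in the framed peaks, while peaks with H3K4me1 on neither side had a median of 1303 bp (871 to 1809 bp).

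**Figure D2:**
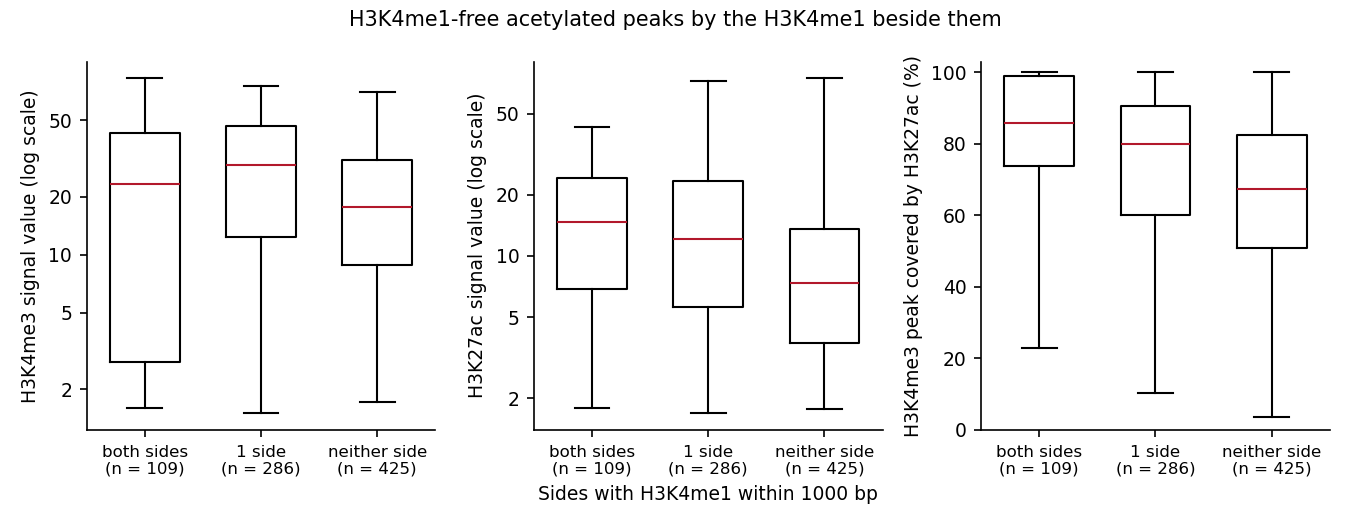
H3K4me3 signal value, H3K27ac signal value (both log scales) and the percentage of the H3K4me3 peak covered by H3K27ac, for H3K4me1-free peaks with H3K4me1 within 1000 bp on both sides, 1 side or neither side. Boxes show quartiles, the red line the median and whiskers the full range. H3K27ac medians go from 14.6 to 7.34 across the subsets, with broad overlap.

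Over all widths, H3K4me3 had a similar median strength in peaks with and without H3K4me1 overlap, but the groups differed in spread and in width. The median H3K4me3 signal value was 21.0 (interquartile range 8.66 to 38.8, range 1.503 to 82.5) in the 820 H3K4me1-free peaks and 23.5 (4.48 to 44.4, range 1.25 to 108.4) in the 16491 H3K4me1-overlapping peaks. That difference of -0.16 in median log2 was lower on 15 chromosomes and higher on 8, within a standard deviation (SD) over chromosomes of 0.53. Median widths were 1429 bp and 1913 bp. Within bins of equal width the order turned. There the H3K4me1-free peaks had the higher H3K4me3 signal value by 0.58 in log2, 1.499 times, on 23 of 23 chromosomes (SD 0.27).

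The difference lay in the peaks under 2000 bp. Under 500 bp the medians were 2.56 (n = 72) without and 1.97 (n = 1433) with H3K4me1 overlap. Between 500 and 1000 bp the median H3K4me3 signal value was 7.78 (5.01 to 13.2, n = 191) without and 3.22 (2.40 to 4.75, n = 2897) with H3K4me1 overlap, so that the interquartile ranges did not meet. Between 1000 and 1500 bp the medians were 17.3 (n = 163) and 8.12 (n = 2147), and between 1500 and 2000 bp 29.7 (n = 141) and 24.6 (n = 2198). From 2000 to 3000 bp they were 39.9 (n = 194) and 40.8 (n = 5013), and from 3000 to 4000 bp 47.6 (n = 59) and 47.9 (n = 2803). Weak H3K4me3 peaks, with a signal value under 5, made up 119 of the H3K4me1-free peaks (14.5%, Wilson interval 12.3 to 17.1). Their share was 26.4% over all acetylated peaks under 4000 bp and 33.6% in H3K4me1-overlapping peaks weighted to the same widths. Signal values of 40 or more were found in 187 H3K4me1-free peaks (22.8%, 20.1 to 25.8). That share was 30.9% over all acetylated peaks under 4000 bp and 21.8% in H3K4me1-overlapping peaks weighted to the same widths. That H3K4me1 declines with H3K4me3 strength was known from these lists when the set was chosen, so this is no separate evidence of that relation. In the H3K4me1-overlapping group itself, the 9121 peaks with more than 50% of their length under H3K4me1 had a median H3K4me3 signal value of 5.82. The 448 with at most 10% had 40.9, and the bins between had 42.3 (up to 25%) and 41.9 (up to 50%). The value was thus lower only above 50%. Those 9121 peaks had a median width of 1154 bp, against 2504 bp for the 448, and these values were not matched for width.

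**Figure D3:**
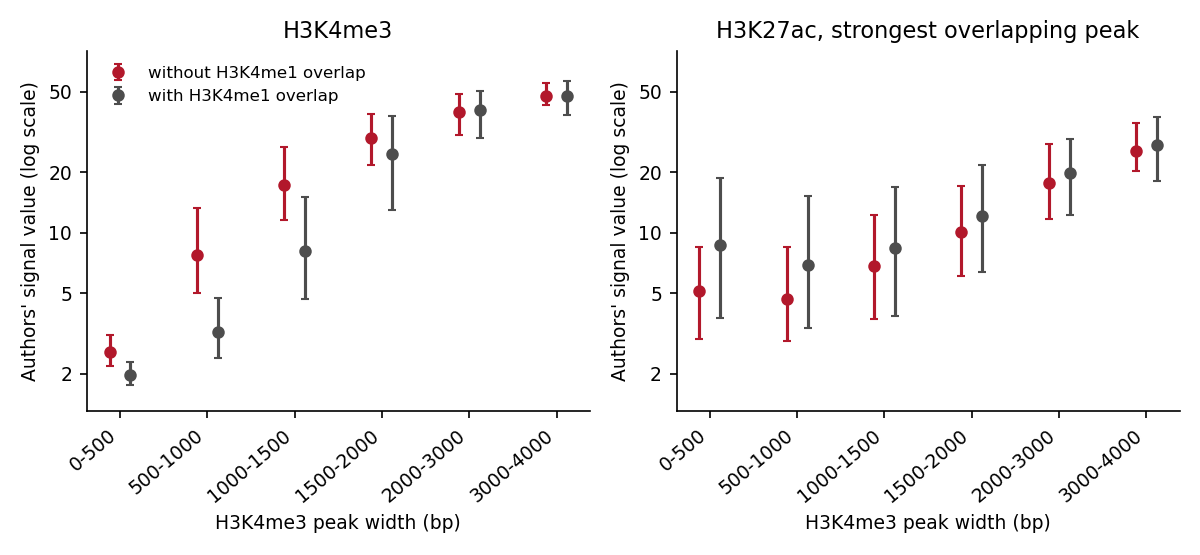
Median signal value (points) and quartiles (bars) on log scales of H3K4me3 and of the strongest overlapping H3K27ac peak, by width of the H3K4me3 peak in bp, for peaks with and without H3K4me1 overlap. H3K4me3 medians are higher without H3K4me1 in each bin below 2000 bp (7.78 against 3.22 at 500 to 1000 bp) and nearly coincide above it. Each H3K27ac median is lower without H3K4me1.

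Acetylation was weaker and more compact in the H3K4me1-free peaks than in the H3K4me1-overlapping peaks as a whole. The small number of H3K4me1-overlapping peaks with no H3K4me1 beside them had values near those of the H3K4me1-free peaks or lower. The signal value of the strongest overlapping H3K27ac peak had a median of 9.64 (quartiles 4.63 and 19.1, range 1.68 to 74.6) in the H3K4me1-free peaks and 15.3 (quartiles 6.75 and 26.5) in the H3K4me1-overlapping peaks. The difference of -0.66 in median log2 was lower on 22 of 23 chromosomes (SD 0.41), the exception being chromosome 14 with medians of 17.3 and 14.3. Within width bins it was -0.34, lower on 17 chromosomes and higher on 6, close to its SD of 0.33 over chromosomes. The 170 H3K4me1-overlapping peaks with H3K4me1 beside neither edge had a lower median than the H3K4me1-free peaks, 6.99 (quartiles 3.42 and 14.2), near the 7.34 of H3K4me1-free peaks with H3K4me1 on neither side.

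The extent of H3K27ac showed a larger contrast than its strength. The strongest H3K27ac peak had a median width of 1021 bp against 2055 bp, a ratio of 0.497, and within width bins the ratio was 0.556, lower on 23 of 23 chromosomes both ways. In the 170 H3K4me1-overlapping peaks with H3K4me1 beside neither edge it was 1090 bp, with 71.7% of the H3K4me3 peak covered. It lay wholly inside the H3K4me3 peak in 601 of 820 peaks (73.3%, Wilson interval 70.2 to 76.2). That share was 39.7% over all acetylated peaks under 4000 bp and 36.5% in width-matched H3K4me1-overlapping peaks, and the H3K4me1-free share was the higher on 23 of 23 chromosomes. It spanned the H3K4me3 peak past or up to both edges in 75 peaks (9.15%, 7.36 to 11.3), against 32.8% over all acetylated peaks. It passed a single edge in 145 (17.7%, 15.2 to 20.4), against 27.6% over all acetylated peaks. H3K27ac covered a median of 73.6% of the H3K4me3 peak without and 92.6% with H3K4me1 overlap. Coverage of 50% or more was reached by 668 of 820 (81.5%), against 91.3% over all acetylated peaks.

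In narrow peaks this difference took a particular form. Of the 263 H3K4me1-free peaks under 1000 bp, 86 (32.7%, 27.3 to 38.6) had an H3K27ac peak wider than the H3K4me3 peak, compared with 3373 of 4330 (77.9%, 76.6 to 79.1) H3K4me1-overlapping ones. Under 1000 bp the H3K27ac peak was thus mostly the wider one with H3K4me1 overlap and mostly not without it. The H3K4me1-free peaks differed by width, however. Under 500 bp their strongest H3K27ac peak had a median width of 476 bp (quartiles 317.75 and 1850.5 bp), and median H3K27ac coverage was 95.7%. Between 500 and 1000 bp these medians were 485 bp (364.5 and 748.5 bp) and 68.0%. The share with a wider H3K27ac peak was not tested in each bin. In H3K4me1-free and H3K4me1-overlapping peaks of all widths the strongest H3K27ac peak mostly contained the H3K4me3 summit. That does not by itself place its own summit there. The H3K4me3 summit lay inside the strongest H3K27ac peak in 790 of 820 H3K4me1-free peaks (96.3%, against 96.4% over all acetylated peaks). The summits of the marks were a median of 76.5 bp apart (quartiles 27 and 150 bp) without and 101 bp (45 and 423 bp) with H3K4me1 overlap. They were within 200 bp in 656 of 820 (80.0%, 77.1 to 82.6), against 66.7% over all acetylated peaks and 68.8% in width-matched H3K4me1-overlapping peaks. More than 1 H3K27ac peak was touched by 95 of 820 (11.6%), near the 12.4% over all acetylated peaks.

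The surroundings held fewer peaks of each mark than those of the H3K4me1-overlapping peaks as a whole. At 5000 bp from the H3K4me3 summit, 4.94% of positions beside H3K4me1-free peaks lay inside an H3K27ac peak and 2.87% inside another H3K4me3 peak. Beside width-matched H3K4me1-overlapping peaks these shares were 13.9% and 6.39%. At 10000 bp the H3K27ac values were 4.51% and 12.4%. For H3K4me1 they were 8.48% and 24.8% at that distance, beyond the H3K4me3 peaks themselves, in which the rule allows no H3K4me1. Nearer the summit the H3K4me1 share is set by the rule. The set was chosen by H3K4me1, so the H3K4me1 values at 10000 bp are description only as well.

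Counted from 10 to 50 kb on either side, the H3K4me1-free peaks had a median of 1 H3K27ac summit (interquartile range 0 to 4), against 5 (2 to 8) for H3K4me1-overlapping peaks. The H3K27ac median was lower on 23 of 23 chromosomes. No H3K27ac summit lay in that range around 280 of the 820 peaks (34.1%, 31.0 to 37.5), compared with 1853 of 16491 (11.2%, 10.8 to 11.7). H3K4me3 summits there had medians of 1 and 2. The sparse neighbourhood also held for the peaks framed by H3K4me1 on both sides, whose median was 2 H3K27ac summits (1 to 6), and was most marked with H3K4me1 on neither side, at 1 (0 to 3). Other H3K4me3 peaks had similarly sparse surroundings. The 170 H3K4me1-overlapping peaks with H3K4me1 beside neither edge had a median of 2 H3K27ac summits in that range. Peaks under 4000 bp with H3K4me1 but no H3K27ac had 2, and those with neither mark had 0. The nearest other H3K4me3 peak was a median of 19898 bp away without and 11938 bp away with H3K4me1 overlap, 1.67 times as far, and farther on 20 of 23 chromosomes. It was 24449 bp away for the 170, 17950 bp for peaks with H3K4me1 but no H3K27ac and 44310 bp for those with neither mark. Within width bins the ratio was 1.64, but 14 chromosomes had the larger gap and 9 the smaller one. Another H3K4me3 peak lay within 10000 bp of 308 H3K4me1-free peaks (37.6%, 34.3 to 40.9), against 45.7% over all acetylated peaks.

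**Figure D4:**
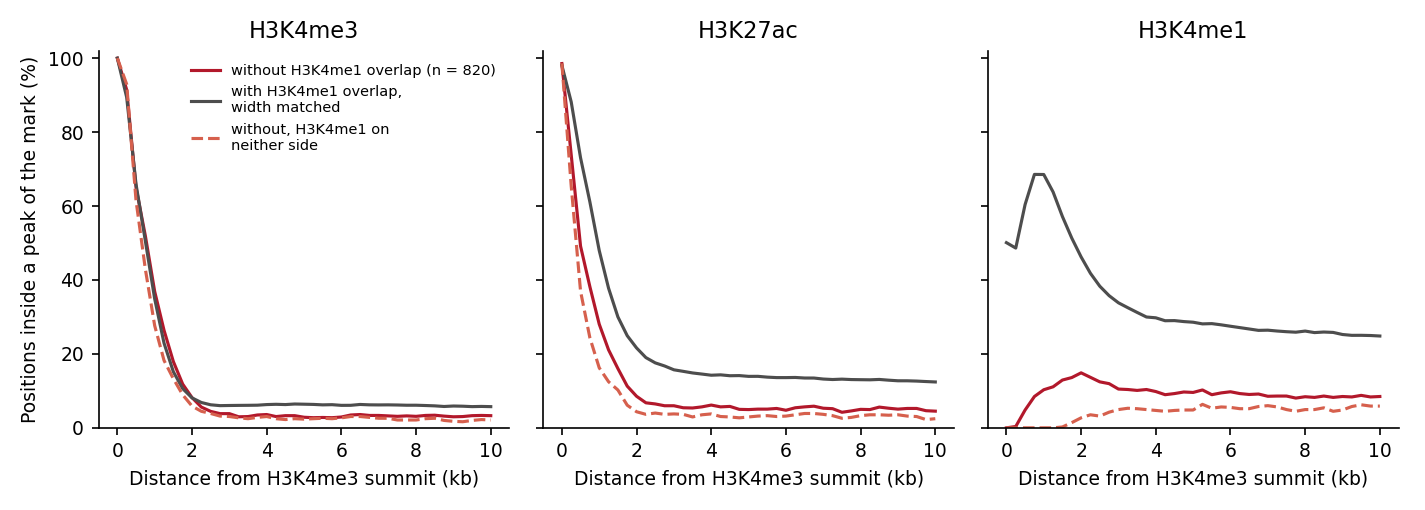
Percentage of positions inside a peak of H3K4me3, H3K27ac or H3K4me1 (y axis) by distance in kb from the H3K4me3 summit, averaged over left and right, for the 820 H3K4me1-free peaks, for width-matched H3K4me1-overlapping peaks and for the H3K4me1-free peaks with H3K4me1 on neither side. H3K4me3 falls off alike near the summit, whereas H3K27ac falls off faster without H3K4me1 and stays lower out to 10 kb (4.51% against 12.4%).

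Isolation was not general, however. Another H3K4me3 peak lay within 1000 bp of 157 H3K4me1-free peaks (19.1%, Wilson interval 16.6 to 21.98), more than the 13.7% over all acetylated peaks and the 15.1% of width-matched H3K4me1-overlapping peaks. In 90 of these 157, a neighbour that close shared bases with H3K4me1. Such sharing was the common state in the list: of 22801 H3K4me3 peaks under 4000 bp, 16491 with and 4566 without H3K27ac had it. The 90 therefore do not mark these neighbours as rich in H3K4me1.

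The share of acetylated peaks that were H3K4me1-free varied between chromosomes. It was highest on X, with 64 of 508 (12.6%, Wilson interval 9.99 to 15.8). X held 7.80% of the 820 and 2.93% of all acetylated peaks under 4000 bp. X was followed by chromosome 4 with 45 of 536 (8.40%, 6.33 to 11.05) and chromosome 15 with 43 of 542 (7.93%, 5.94 to 10.5). It was lowest on chromosome 20, with 4 of 487 (0.821%, 0.320 to 2.09). X and 20 are the extremes of 23 chromosomes, and the intervals cover counting error only, with peaks taken as independent. The statistical weight of H3K4me1 peaks moved with these shares. For each H3K4me1 peak, the −log10 p-value was set against a cubic fit on signal value over the whole list, both in log2. The chromosome median of that excess was lowest on X at -0.42 and highest on chromosome 20 at 0.46. The excess in the H3K4me3 list ran from -0.92 on X to 0.81 on chromosome 20, and that in the H3K27ac list from -0.69 to 0.65. For H3K4me1, its correlation with the share over 23 chromosomes was -0.72 (Pearson) and -0.75 (Spearman), and -0.51 and -0.67 over 21 chromosomes without X and 20. The chromosomes share the same libraries, so this is a description. The weakest 10% of listed H3K4me1 peaks had signal values up to 2.59 on X and up to 2.19 on chromosome 20. The correlation of that value with the share was 0.60 (Pearson) and 0.41 (Spearman) over 23 chromosomes, but 0.26 and 0.22 without X and 20, so it rested largely on those chromosomes. The part of this excess in the shares was not tested. On X, the median H3K4me3 signal value was 30.0 in H3K4me1-free and 29.8 in H3K4me1-overlapping peaks, and the median H3K27ac signal value was 10.0 and 16.0. H3K4me1 lay on neither side of 37 of the 64 (57.8%, 45.6 to 69.1), against 388 of 756 on the autosomes (51.3%, 47.8 to 54.9).

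**Figure D5:**
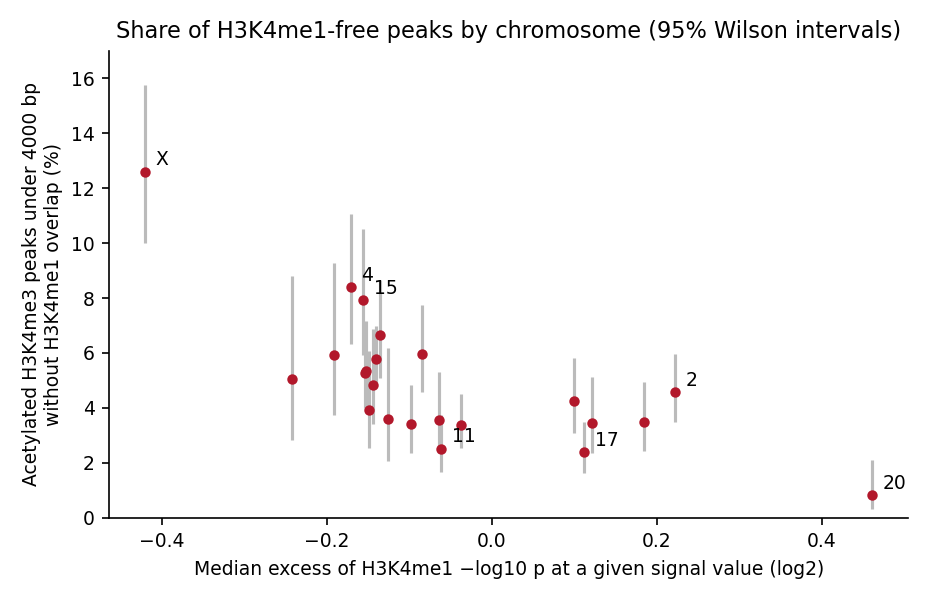
Percentage of acetylated H3K4me3 peaks under 4000 bp that were H3K4me1-free (y axis, with 95% Wilson intervals) by the chromosome median of the H3K4me1 −log10 p-value excess over the fit on signal value (x axis, log2), 1 point per chromosome. X lies at 12.6% with an excess of -0.42 and chromosome 20 at 0.821% with 0.46.

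The peaks with the strongest H3K4me3 show how close H3K4me1 could come. The highest signal value, 82.5, belonged to chr12:110562009-110563132, a peak of 1124 bp with an H3K27ac signal value of 24.0 and H3K4me1 peaks 73 bp to its left and 44 bp to its right. The peak at chr7:65338107-65339775 followed with 74.8 and H3K4me1 at 2998 and 702 bp. The next were chr10:15208300-15210805 (signal value 74.0, H3K4me1 at 81 and 1515 bp) and chr6:35995367-35997753 (72.9, at 153 and 173 bp). The peak at chr16:2652518-2654622 had 71.7, with H3K4me1 50402 bp to its left and 546 bp to its right. The remaining 3 of the 8 strongest had signal values of 70.8 (chr9:77566033-77568843), 70.7 (chr7:106809264-106811298) and 70.4 (chr18:7566154-7569828). All 8 had H3K4me1 within 1000 bp of at least 1 edge, and each touched a single H3K27ac peak, which covered from 84.4% to 99.3% of it. H3K4me1 lay that close in 48.2% of all H3K4me1-free peaks. Over all acetylated peaks under 4000 bp, it lay beside both edges in 80.1% and beside 1 edge in 16.5%. More than 1 H3K27ac peak was touched by only 11.6% of the H3K4me1-free and 12.4% of all acetylated peaks.

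Strong acetylation occurred with and without H3K4me1 nearby. The highest H3K27ac signal value was 74.6, at chr2:113032291-113034665, with H3K4me1 no nearer than 2567 bp and an H3K4me3 signal value of 67.2. At chr12:120729651-120731711 it was 72.5, with H3K4me3 at only 20.4 and H3K4me1 at 362 bp. At chr9:131417678-131419752 it was 71.8, with H3K4me3 at 25.4 and H3K4me1 no nearer than 7264 bp. The peaks at chr7:106809264-106811298 and chr14:39899630-39903394 had 67.1 and 64.5, with H3K4me1 at 364 bp and 86 bp. The order by H3K27ac was thus different from that by H3K4me3, with 1 peak in both.

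The peaks farthest from H3K4me1 varied in strength. The farthest, chrX:125593471-125594513, had H3K4me3 at 5.51 and H3K27ac at 2.02, with 2231218 bp to the nearest H3K4me1 peak. At chr14:84104739-84106428 the values were 28.5 and 18.2, at 1488586 bp. At chr5:21458640-21460829 they were 38.8 and 7.26, at 1392388 bp, with H3K27ac over 33.3% of the peak. The other 2 of the 5 farthest were neighbours 208 bp apart, chr9:40630577-40631549 (7.54 and 6.86) and chr9:40631758-40634642 (15.2 and 8.55). All 5 were more than 1000000 bp from the nearest H3K4me1 peak.

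Among the extremes of width, the narrowest were chr22:20436726-20437037 (312 bp, H3K4me3 2.22, H3K27ac 5.42), chr1:231648067-231648379 (313 bp, 1.71 and 6.87) and chr7:74572231-74572544 (314 bp, 2.69 and 4.96). All 3 had H3K4me3 signal values far under the median of 21.0, but H3K4me1-free peaks under 500 bp had a median of only 2.56 (quartiles 2.18 and 3.12). The widest were chr14:91974132-91978093 (3962 bp, 54.6 and 52.0), chrX:80062716-80066673 (3958 bp, 55.5 and 13.6) and chr4:52707980-52711856 (3877 bp, 61.0 and 17.8). The widest peaks shared a strong H3K4me3 signal and differed in acetylation. For H3K4me1-free peaks of 3000 to 4000 bp, the median H3K4me3 signal value was 47.6 (quartiles 43.0 and 55.3).

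Some peaks lay within a few bp of the limits of the rule. Just inside it, chr22:22873401-22874764 and chr5:175863136-175863909 (H3K4me3 signal values 7.90 and 2.98) adjoined an H3K4me1 peak with a gap of 0 bp, and chr17:76249611-76250828 (44.8) was 1 bp away. Just outside, chrX:16729241-16731617 (43.5) shared 2 bp with H3K4me1, and chr5:114631026-114632850 (27.5) and chr8:30595232-30595693 (2.46) shared 3 bp each. A gap of at most 50 bp kept 64 peaks inside the rule, and at most 50 shared bp kept 76 acetylated peaks under 4000 bp outside it. The width limit left out 29 peaks that met the rest of the rule, the narrowest being chr10:96161219-96165226 (4008 bp, H3K4me3 49.2), chr1:89355480-89359582 (4103 bp, 67.1) and chr5:72859496-72863635 (4140 bp, 53.2).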

How the data were processed

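The files were 3 peak lists, 1 per mark, which going by their names pool the 3 libraries of that mark. MACS2 and hg19 are named in the submitters' processing notes, without version or role. The threshold, the use of the controls and the way of pooling are not given in the sources used here. Per the labels' protocols, 300 ng of sheared DNA entered each immunoprecipitation and reads were paired, of 51 bp. Each peak has the authors' signal value, the deposited −log10 of its p-value and of its q-value, a summit and a deposited score, which was not used. What the signal value is relative to is not stated, so values were compared only within a list. The lists held 24446 H3K4me3, 66513 H3K27ac and 182592 H3K4me1 peaks on chromosomes 1 to 22 and X, of which 42, 436 and 224 had a q-value above 0.05. Depth per library is unknown.

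Overlap means at least 1 shared bp. Where an H3K4me3 peak touched several H3K27ac peaks, the strongest was used for signal value, width and summit. H3K4me1 beside a peak means an H3K4me1 peak reaching into the 1000 bp outside an edge. Differences are in medians of log2 signal value. Width-matched values compare within bins with edges at 500, 1000, 1500, 2000 and 3000 bp, weighted by the H3K4me1-free peaks in each bin. Regions are not replicates, so no p-value was computed. SDs are over 23 chromosomes, and for width-matched differences the values per chromosome were taken within the bins of that chromosome. Alternatives changed the q-value, overlap, distance, width and chromosome rules.

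The rule for named regions took the 8 strongest by H3K4me3, the 5 strongest by H3K27ac, the 5 farthest from H3K4me1, the 3 narrowest and widest, and 3 at each limit of the rule. The set and the measures were chosen with earlier results of these data known. Genes, CpG content, motifs and sequences were not analysed here, since the reference tables used GRCh38. Analyses used Python 3.11.15, numpy 2.4.6, pandas 2.3.3 and scipy 1.17.1, with plots by matplotlib 3.10.9, and were tested on simulated peak lists.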

Additional observations from a re-analysis of the deposited data

How the results depend on the processing

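Over 5 results, 59 alternative values were computed: 45 stayed within 1.5 times the count, the Wilson interval of the share or 1 SD over chromosomes of the difference, 10 moved further and 4 reversed. The alternatives without X and 20 and without windows of 4 or more H3K4me1-free peaks were chosen after seeing the data. With H3K4me1 peaks of −log10 q of at least 5 there were 1553 peaks (8.97% of acetylated peaks under 4000 bp), with H3K4me1 counted only from 10% of a peak covered 1268 (7.32%), and with no H3K4me1 within 1000 bp 425 (2.46%). The share was 4.23% with H3K27ac over at least 50% of the peak, 6.14% under 2000 bp and 4.29% without the 1 Mb windows that held 4 or more. The H3K4me3 difference reversed from -0.16 to 0.0878 with the stricter H3K4me1 threshold, 0.45 with 10% covered, 1.43 under 2000 bp and 0.58 within width bins. Within width bins it stayed positive under each setting run there, from 0.46 to 0.86. The H3K27ac difference moved to -0.25 with 10% covered and within width bins stayed negative, from -0.48 to -0.21. The cause of these changes was not tested, except that lists with fewer H3K4me1 peaks leave more peaks without overlap by construction. The gene start share and the CpG difference were not run, for want of an hg19 annotation and genome. No paired analysis was possible because the lists pool the replicates, and for the same reason no library could be left out.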

Other observations

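H3K4me1-free peaks with H3K4me1 on 1 side allow a comparison of both edges of the same peak. In these 286 peaks the strongest H3K27ac peak passed the H3K4me3 edge facing H3K4me1 in 61 (21.3%, 95% Wilson interval 16.98 to 26.4). It passed the other edge in 48 (16.8%, 12.9 to 21.5). Both edges belong to the same peaks, so these separate intervals do not compare them. The strongest H3K27ac peak reached farther toward the side with H3K4me1 in 160 (55.9%, 50.1 to 61.6). In 125 it reached farther toward the other side (43.7%, 38.1 to 49.5). The H3K4me3 summit lay on the side of H3K4me1 in 128 (44.8%, 39.1 to 50.5). With positions inside the H3K4me3 peak counted as negative, H3K27ac ended at a median of -143.5 bp from the edge facing H3K4me1 and at -168.5 bp from the other edge. The H3K27ac peak itself shared bases with H3K4me1 in 33 of the 286 (11.5%). With H3K4me1 on both sides it did so in 38 of 109 (34.9%, 26.6 to 44.2).

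The H3K4me1-free peaks fell into 589 windows of 1 Mb, of which 435 held a single one and 19 held 4 or more. The fullest window, on chromosome 7, held 10 between 74267059 and 74989167, beside 3 H3K4me1-overlapping peaks, with H3K4me3 signal values of 2.69 to 27.04. Chromosome 1 held 6 between 147999565 and 148605217, beside 1 H3K4me1-overlapping peak (8.31 to 39.9), and chromosome 5 held 6 between 140097736 and 140706450, beside 13 (7.18 to 36.4). How many windows would be filled alike by other acetylated peaks was not tested. How uniquely reads map in these windows was not examined either. The windows were singled out after their values were seen. On chromosome Y, outside the set, 3 of 15 acetylated peaks under 4000 bp had no H3K4me1 overlap, with H3K4me3 signal values from 20.0 to 52.2.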
